A study of Mus musculus with 4 samples.

Results

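The vascular endothelial growth factor (VEGF) family was followed here across 4 arrays of SVEC4-10 cells as 10 genes chosen by name, out of 18193 genes on the array. There were 5 ligands (Vegfa, Vegfb, Pgf, Vegfc and Vegfd, the last also known as Figf), 3 receptor tyrosine kinases (Flt1, Kdr and Flt4) and the co-receptors Nrp1 and Nrp2. They were read by 25 probe sets with 1 gene symbol each, and each gene was represented by its brightest probe set on average. All 10 lay at or above the floor used here, the median of all values (5.41 on the log2 scale), on at least 1 array, so none was left out of a comparison.

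SVEC4-10 is a mouse endothelial line made from lymph node vessels by transformation with SV40. One array held cells that had received nothing, 1 held cells carrying the pLENTI6/Block-iT lentiviral vector without an insert, and the other 2 held cells in which that vector expressed a short hairpin RNA, aimed at Mical2 on one and at Mical3 on the other. Transduced cells were kept under blasticidin. Mical2 encodes an enzyme that oxidises actin filaments, and the series asked which endothelial transcripts depend on it. Each array received RNA combined from 3 biological replicates, so the replicate spread cannot be seen, no test can be run, and every difference below is a difference between single arrays, read by its size. A gene was called higher or lower when it differed by at least 2-fold, a log2 difference of 1, provided that 1 of the arrays compared reached the floor. For a hairpin array this had to hold against each of the controls, with 1 sign. Both hairpin comparisons share those 2 control arrays.

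VEGF ligands are secreted dimers that make receptor pairs phosphorylate each other at the cell surface. VEGF-A, the main signal for new blood vessels, acts mostly through the receptor VEGFR2, encoded by Kdr, while VEGF-B and placental growth factor (Pgf) bind VEGFR1, encoded by Flt1. VEGF-C and VEGF-D act through VEGFR3, encoded by Flt4, and are known for the growth of lymphatic vessels. Neuropilins bind both VEGF ligands and class 3 semaphorins and present them to their receptors.

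The labels were checked first. Mical2 was read by 2 probe sets, which stood at 5.33 and 5.60 on the untreated array, 4.64 and 5.14 on the vector array, 5.53 and 5.53 on the Mical2-labelled array and 6.0 and 6.08 on the Mical3-labelled array. Mical3 stood at 7.39, 7.29, 6.83 and 7.24 in that order. Mical2 was thus higher on its own hairpin array than on the vector array in both probe sets. Compared with the untreated array, its first probe set was higher there and its second lower. Mical3 was lowest on the Mical2-labelled array, and on its own hairpin array it lay close to the controls. Neither hairpin array showed a clear fall of its own target, so these arrays are named here only by their labels. The Mical2 levels lay on both sides of the floor, where a difference is hard to read. The arrays had medians from 5.40 to 5.44.

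The cell type was checked against marker lists. Of 17 endothelial markers 11 lay below the floor on all 4 arrays, and these included the junction genes Pecam1 and Cdh5, the angiopoietin receptor genes Tek and Tie1, and Vwf. Markers at or above the floor throughout were Eng, from 7.31 to 7.58, Egfl7, from 6.93 to 7.24, Mcam, from 6.04 to 7.90, and Esam, from 5.61 to 6.05. Of 13 fibroblast and mural markers 9 reached the floor somewhere, with Col3a1 at 13.29 on the untreated array, 10.30 on the vector array, 13.25 on the Mical2-labelled array and 10.79 on the Mical3-labelled array. The summed log2 level of this list was 118.0, 99.87, 117.07 and 96.38 in that order, and Col1a2, a chain of type I collagen, stood at 14.49, 11.64, 14.06 and 6.19. The list did not move as a whole. Acta2, at 13.67, 11.61, 13.8 and 14.49, and Dcn, at 12.36, 10.52, 12.27 and 12.79, were highest on the Mical3-labelled array. The endothelial sum ran from 86.46 to 88.84 and the leukocyte sum from 35.31 to 38.30. Of 7 leukocyte markers 3, Ptprc among them, lay below the floor on all arrays. Cd68 was called higher on the vector array, at 8.0 against 5.93 on the untreated array. The epithelial sum was 26.18 on the vector array and 30.65 to 32.84 on the others. Of 5 epithelial markers only Cdh1 lay below the floor on all arrays. Krt14 was called higher on the Mical2-labelled array and Krt18 on the Mical3-labelled array. In pooled RNA, fewer cells of a kind and less RNA per cell cannot be told apart.

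**Figure D1:**
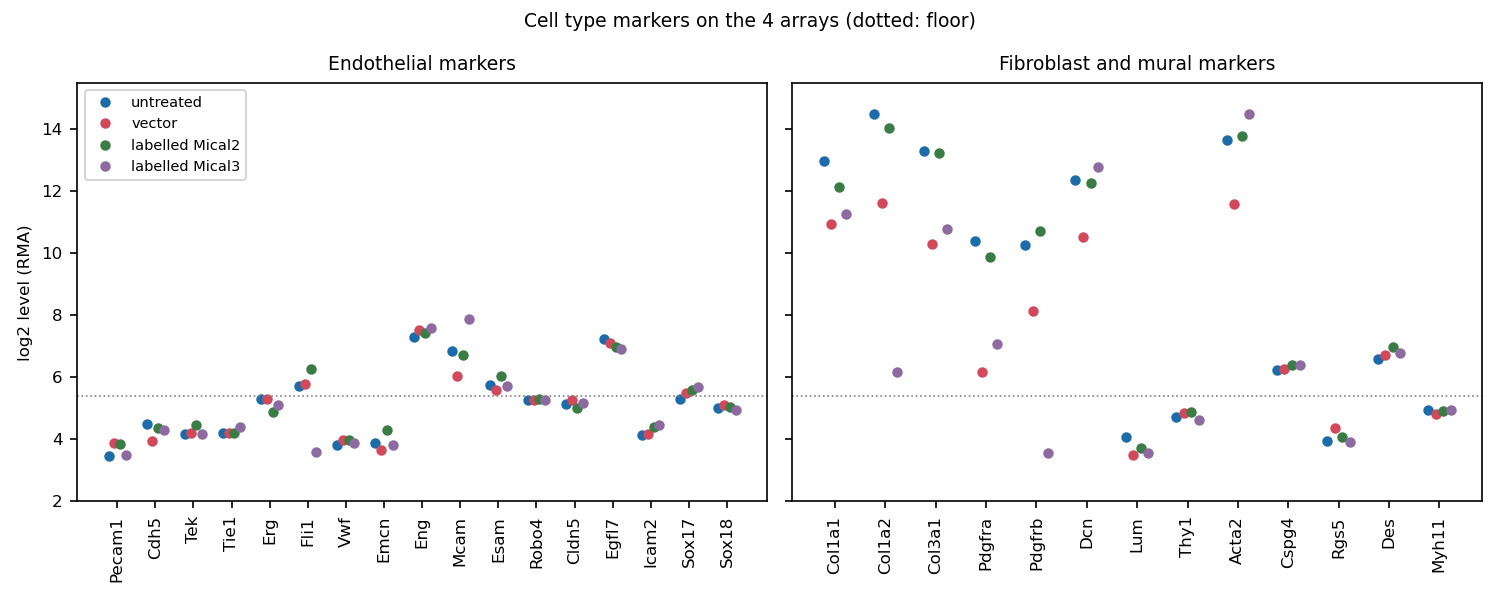
Log2 levels (RMA, vertical axis) of endothelial markers (left) and fibroblast and mural markers (right) on the 4 arrays, 1 point per gene and array, with the floor of 5.41 as a dotted line. Of the 17 endothelial markers 11 lie below the line on every array, while Col1a1, Col3a1, Dcn and Acta2 lie above 10 throughout and Pdgfrb and Col1a2 are lowest on the Mical3-labelled array.

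Among the ligands, Vegfc and Vegfd stood apart on the Mical3-labelled array. Vegfc was at 9.16 on the untreated array, 8.32 on the vector array, 8.86 on the Mical2-labelled array and 6.64 on the Mical3-labelled array. The Mical3-labelled array was thus the low one for Vegfc, 3.2-fold below the vector array and 5.74-fold below the untreated array. The other probe sets of Vegfc gave the same picture at 8.41, 7.26, 8.05 and 6.08 and at 8.39, 7.61, 8.08 and 5.70, so their differences from the vector array were -1.18 and -1.91 on the log2 scale. The control arrays themselves differed for Vegfc, with a log2 difference of vector minus untreated of -0.84 in the main probe set and of -1.15 and -0.78 in the others. Vegfc on the Mical2-labelled array lay between them, with differences of 0.54 against the vector array and -0.30 against the untreated one. The order of the arrays for Vegfc (untreated, labelled Mical2, vector, labelled Mical3) was the order of the summed fibroblast and mural markers given above, whose part in this result was not tested.

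Vegfd read 8.07 on the untreated array, 8.16 on the vector array, 8.75 on the Mical2-labelled array and 6.03 on the Mical3-labelled array. Here the controls differed by 0.09, and the Mical3-labelled array was 4.38-fold below the vector array and 4.11-fold below the untreated array. The second probe set stood at 8.11, 8.06, 8.80 and 5.77 and the third at 7.51, 7.73, 8.09 and 5.62 in the same order. In all 3 Vegfd probe sets the Mical2-labelled array was the highest, by 0.36 to 0.74 over the vector array and by 0.58 to 0.69 over the untreated array, which is under the 2-fold limit. All 3 came down to between 5.62 and 6.03 on the Mical3-labelled array, close to the floor. The Vegfd probe set used, like that of Vegfc, has an identifier ending in _x_at, which marks probes open to cross-hybridisation. The other probe sets of both genes, which do not, gave log2 differences of -1.18 to -2.69 from the 2 controls.

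Vegfb stood at 8.89 on the untreated array, 9.77 on the vector array, 8.17 on the Mical2-labelled array and 9.20 on the Mical3-labelled array. The Mical2-labelled array was the lowest, 3.03-fold below the vector array but 1.65-fold below the untreated array, so Vegfb was not called against both. Vegfb had 1 probe set. Vegfa, the ligand of VEGFR2 that hypoxia induces, had the same order of arrays in its main probe set, with 8.34 on the untreated array, 9.04 on the vector array, 7.98 on the Mical2-labelled array and 8.97 on the Mical3-labelled array. Its second probe set spanned less, at 7.42, 7.55, 7.33 and 7.69. Against the vector array the 2 Vegfa probe sets gave -1.06 and -0.22 for the Mical2-labelled array, and against the untreated array -0.36 and -0.09. Pgf, read by 1 probe set, lay close to the floor on all arrays at 5.83, 5.77, 6.06 and 5.77.

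Of the receptors, Flt4 was lower on both hairpin arrays. Its main probe set stood at 9.18 on the untreated array, 8.90 on the vector array, 7.66 on the Mical2-labelled array and 7.55 on the Mical3-labelled array. The 2 hairpin arrays differed by 0.11, and both lay below both controls, by 2.36-fold and 2.87-fold for the Mical2-labelled array (vector, then untreated) and by 2.55-fold and 3.1-fold for the Mical3-labelled array. A second Flt4 probe set, at 6.57, 6.43, 6.04 and 6.15, had the same direction in all 4 of these differences but smaller sizes, of -0.39 and -0.53 for the Mical2-labelled array and -0.28 and -0.42 for the Mical3-labelled array. The Flt4 calls thus rest on 1 of its 2 probe sets, and with the mean of both they were lost (-0.81 for each hairpin array against the vector array).

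Kdr, the receptor that carries most VEGF-A signalling in blood vessels, was read by 1 probe set at 5.72 on the untreated array, 5.76 on the vector array, 5.76 on the Mical2-labelled array and 5.95 on the Mical3-labelled array. All 4 values lay just above the floor of 5.41, where a difference in Kdr is hard to read. Flt1, which also yields a soluble form that traps ligand, was flat in its main probe set at 7.73, 7.76, 7.72 and 7.70. Its second probe set varied more, at 7.0 on the untreated array, 7.53 on the vector array, 6.92 on the Mical2-labelled array and 6.68 on the Mical3-labelled array. The third Flt1 probe set lay between 5.96 and 6.25 and the fourth below the floor, between 4.78 and 4.94. In no Flt1 probe set did any pair of arrays differ by 2-fold, and the largest gap was 0.85 between the vector array and the Mical3-labelled array.

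No neuropilin was called on a hairpin array against both controls. Nrp1 stood at 10.62 on the untreated array, 9.61 on the vector array, 10.53 on the Mical2-labelled array and 9.81 on the Mical3-labelled array, so that the untreated and Mical2-labelled arrays were high and the vector and Mical3-labelled arrays low. The next 2 Nrp1 probe sets had the same grouping, at 9.16, 8.47, 9.15 and 8.48 and at 9.10, 8.22, 9.04 and 8.46. The fourth, at 6.54, 6.03, 6.05 and 5.81, had the untreated array high alone and the Mical3-labelled array lowest. The 2 arrays high for Nrp1 are also those with the higher summed fibroblast and mural markers, 118.0 and 117.07, whose part in this was not tested. Nrp2, the partner of VEGFR3 in lymphatic vessels, was at 10.27, 11.03, 10.36 and 10.70 in the same order of arrays, lowest on the untreated array. Its next 2 probe sets also had the vector array highest and the untreated array lowest, at 8.87, 9.86, 9.65 and 9.35 and at 7.88, 8.66, 8.49 and 8.26, while the fourth lay between 5.41 and 5.72. On the Mical2-labelled array the Nrp2 probe sets disagreed, with 0.09, 0.78 and 0.61 above the untreated array in the first 3.

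**Figure D2:**
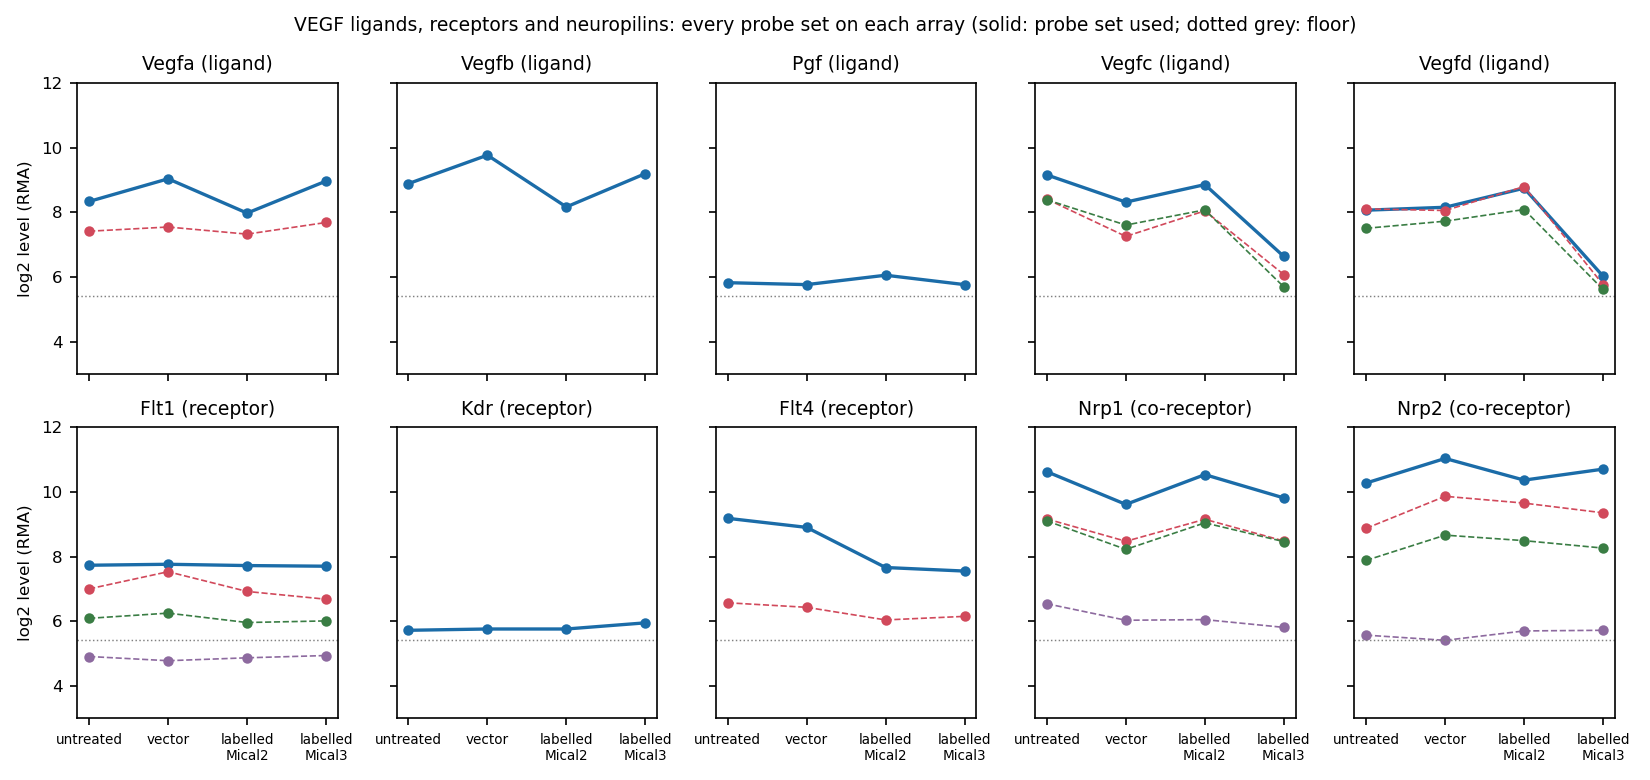
Log2 levels (RMA, vertical axis) of all 25 probe sets of the 10 genes on the 4 arrays (horizontal axis), 1 panel per gene. Lines join the values of 1 probe set and imply no order of the arrays, the solid line is the probe set used, and the dotted grey line is the floor of 5.41. All 3 probe sets of Vegfc and of Vegfd are lowest on the Mical3-labelled array, Flt4 is lower on both hairpin arrays mainly in 1 probe set, and Kdr and Pgf stay near the floor.

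Counted by the size rule, 3 of 10 members (30.0%) were lower on the Mical3-labelled array than on both controls, Vegfc, Vegfd and Flt4, and none was higher. Over all 12011 genes compared there, 2.49% were lower and 1.38% higher. Over the 10 members the median difference was -0.20 with the vector array as control and -0.04 with the untreated one, against -0.03 and 0.01 for all genes, so the count rests on Flt4 and its 2 ligands.

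On the Mical2-labelled array, 1 of 10 members (10.0%), Flt4, was lower than on both controls and none was higher. Of all 12072 genes compared, 1.75% were lower and 0.977% higher. The members' median differences were -0.02 against the vector array and -0.05 against the untreated one, against -0.05 and -0.03 for all genes. Against the vector array alone Vegfa and Vegfb were called lower as well. Of the ligands of VEGFR3, Vegfd was 1.51-fold above the vector array and 1.6-fold above the untreated one there, and Vegfc differed by 0.54 and -0.30 on the log2 scale in that order.

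Between the hairpin arrays, Vegfc was 4.66-fold and Vegfd 6.59-fold higher on the Mical2-labelled array, and Vegfb was 2.04-fold lower. For all genes 3.81% were higher and 3.72% lower in this comparison. Vegfa was 1.99-fold lower in its main probe set and differed by -0.36 on the log2 scale in the other. Flt4 and Flt1 differed by 0.11 and 0.02 on the log2 scale. Between the controls, Nrp1 was called lower on the vector array, at 2.01-fold, and no member was called higher, against 2.57% and 3.26% of all 11849 genes. Vegfb, Nrp2 and Vegfa were 1.84-fold, 1.69-fold and 1.62-fold higher on the vector array and Vegfc 1.79-fold lower, all under the 2-fold limit.

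For scale, 5198 genes had 2 probe sets with means at or above the floor. The differences that those 2 probe sets gave for the same pair of arrays were apart by a median of 0.23 and, at the 95th percentile, by 0.94 for the Mical2-labelled array against the vector array. For the Mical3-labelled array against the vector array the median gap was 0.25 and the 95th percentile 1.02. The differences of Vegfc and Vegfd from both controls on the Mical3-labelled array exceed the 95th percentile in all 3 probe sets of each gene, and those of Flt4 in 1 of its 2. The 2 Flt4 probe sets, at -1.35 and -0.28 there against the vector array, were themselves apart by more than that percentile. Against the untreated array, at -1.63 and -0.42 (95th percentile 0.8), they were too. For the Mical2-labelled array against the vector array, at -1.24 and -0.39, their gap was smaller than the percentile. Against the untreated array, at -1.52 and -0.53 (95th percentile 0.67), their gap on the Mical2-labelled array was larger than it. The gap between probe sets measures how far probe sets disagree, not how far replicates do.

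**Figure D3:**
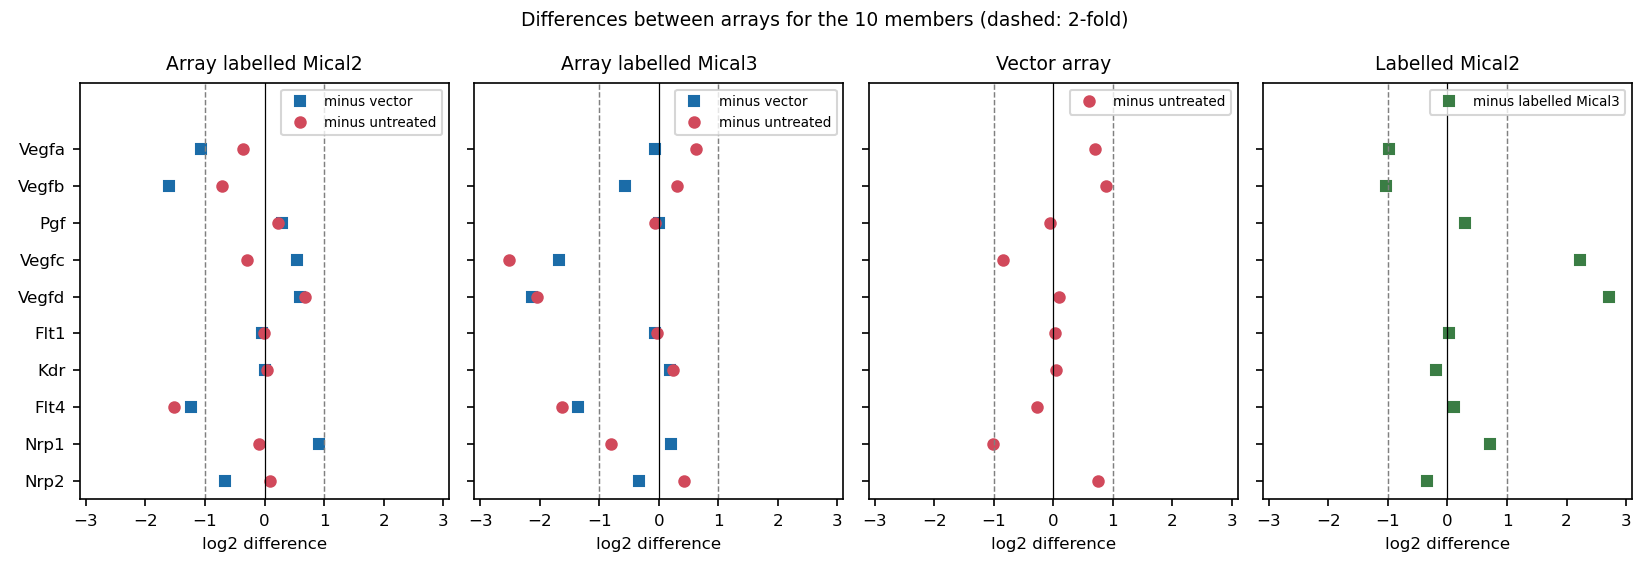
Log2 differences (horizontal axis) of the 10 members in their main probe set, 1 panel per compared array, with blue squares for the difference from the vector array, red circles for that from the untreated array and green squares for the Mical2-labelled array minus the Mical3-labelled array. Dashed lines mark 2-fold. Vegfc, Vegfd and Flt4 lie beyond the left line for both controls on the Mical3-labelled array, and Flt4 alone does so on the Mical2-labelled array.

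The promoters of the 3 called genes are shown because these genes were low together on the Mical3-labelled array. Windows of 300 bases, from 250 before to 50 after an annotated start, came from RefSeq on GRCm38.p6 and were found for all 10 members. A gene with several starts has several windows. Vegfc lies at chr8:54077282-54077581 (plus strand), Vegfd at chrX:164373272-164373571 (plus strand) and Flt4 at chr11:49609429-49609728 (plus strand). They are written 5′ to 3′ with 2 motifs in capitals, searched on both strands so that the reverse complement counts too. These are the ETS core GGAA, bound by factors such as FLI1 and ERG, and the GC box GGGCGG, bound by SP1. Capitals run together where matches overlap or touch.
Vegfc: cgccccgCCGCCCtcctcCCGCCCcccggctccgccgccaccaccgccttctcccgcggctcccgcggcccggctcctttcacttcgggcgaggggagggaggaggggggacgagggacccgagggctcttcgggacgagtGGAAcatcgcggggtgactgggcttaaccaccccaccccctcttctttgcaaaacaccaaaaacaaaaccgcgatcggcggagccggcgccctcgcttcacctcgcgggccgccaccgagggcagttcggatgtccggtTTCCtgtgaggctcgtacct
Vegfd: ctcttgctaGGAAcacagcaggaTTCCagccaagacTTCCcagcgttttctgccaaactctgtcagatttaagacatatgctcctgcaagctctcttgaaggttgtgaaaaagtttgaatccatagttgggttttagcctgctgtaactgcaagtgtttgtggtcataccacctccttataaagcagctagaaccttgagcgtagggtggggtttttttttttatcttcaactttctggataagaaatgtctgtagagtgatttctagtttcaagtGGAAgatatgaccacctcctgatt
Flt4: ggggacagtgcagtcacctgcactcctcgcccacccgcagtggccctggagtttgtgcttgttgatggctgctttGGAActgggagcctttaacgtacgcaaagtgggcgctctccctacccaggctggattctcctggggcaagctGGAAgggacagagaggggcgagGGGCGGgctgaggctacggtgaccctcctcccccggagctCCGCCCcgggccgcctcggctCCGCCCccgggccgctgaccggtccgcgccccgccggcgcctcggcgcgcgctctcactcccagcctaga

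Of the 3 windows, those of Vegfc and Flt4 were alike in base content and that of Vegfd differed. The Vegfc and Flt4 windows held 70.3% G and C each, more than 90.9% of the 32851 windows in the table, with 35 and 26 CG dinucleotides, while the Vegfd window held 42.0%, more than 14.1% of windows, with 2 CG dinucleotides. GC boxes were matched 2 times in Vegfc, 3 times in Flt4 and not in Vegfd, and 35.7% of all windows held at least 1. The ETS core was matched 2 times in Vegfc, 4 times in Vegfd and 2 times in Flt4, with 96.0% of all windows holding it and a median of 3 matches. None of the 3 held the hypoxia response core ACGTG (19.6% of windows), the AP-1 motif TGANTCA (7.81%) or a CArG box, the motif of SRF (1.63%). Among the other members, the hypoxia core was matched 1 time in 1 of the 2 Vegfa windows, and no member's window held an AP-1 motif or a CArG box. The Vegfa window with the match, chr17:46025114-46025413 (minus strand), is the downstream one. The upstream window, chr17:46032328-46032627, held no match. These are matches of letters in a short window and show no binding.

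Genes around the family were counted from lists, and some genes stand in more than 1 list. For scale, 0.977% of all genes compared were called higher and 1.75% lower on the Mical2-labelled array. On the Mical3-labelled array 1.38% were higher and 2.49% lower, and on the vector array 3.26% and 2.57%. Between the hairpin arrays the shares were 3.81% and 3.72%. Of 47 genes that relay VEGF receptor signals inside the cell, 38 could be compared for the Mical2-labelled array, and 1 was called, the small heat shock protein gene Hspb1, which p38 signalling acts on to change actin. It was lower at 11.67, against 12.85 on the untreated and 13.16 on the vector array, and its second probe set read 11.46 against 12.74 and 13.06. On the Mical3-labelled array none of 39 relay genes was called. The list's medians were 0.04 and 0.02 for the Mical2-labelled array (vector, then untreated) and 0.07 and 0.01 for the Mical3-labelled array.

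Among 29 receptor partners and traffic genes none was called on the Mical2-labelled array. On the Mical3-labelled array, Dab2, a clathrin adaptor of VEGF receptor endocytosis, was higher at 11.61 (10.46 on the untreated array, 9.50 on the vector array), as was Mcam at 7.90 (6.84 and 6.04). Gpc1, a heparan sulfate proteoglycan that binds VEGF-A, was lower there at 6.25 (8.65 and 9.22). On the vector array Efnb2, whose product guides receptor uptake, was lower at 9.44 against 10.98 on the untreated array, and so were Itgb1 and Thbs1. None of 13 plexins, class 3 semaphorins and related neuropilin partners was called against both controls on either hairpin array. Between the hairpin arrays Sema3d was lower on the Mical2-labelled array (8.70 against 10.37), as was Sema3e (7.76 against 9.01), and Plxna2 was higher (7.46 against 6.41).

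Of 6 compared genes that mature VEGF-C and VEGF-D by cleavage or aid it, Pcsk5, a proprotein convertase, was called higher on the Mical3-labelled array, where both of those ligands were low. It stood at 6.01 on the untreated array, 4.84 on the vector array, 4.62 on the Mical2-labelled array and 8.66 on the Mical3-labelled array. Its second probe set read 5.03, 3.99, 4.18 and 7.20, and its other 3 lay below the floor on every array. Among 16 modulators of ligand availability, Sulf1, which trims the heparan sulfate that VEGF-A binds, was lower on the Mical2-labelled array at 4.71. It stood at 10.19 on the untreated array, 9.95 on the vector array and 10.60 on the Mical3-labelled array. Hbegf and Mmp2 were higher on the Mical2-labelled array, both at the limit with a log2 difference of 1.03 from the nearer control. On the Mical3-labelled array Hbegf was higher, at 9.34 (8.16 and 7.67), and the protease gene Mmp3 lower, at 4.60 (7.03 and 7.44).

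Of 31 transcription factors and regulators placed upstream of VEGF genes, Fos, Fosl1 and Klf2 were called higher on the Mical2-labelled array. On the Mical3-labelled array Fos was higher and Fli1, an ETS factor of endothelial and blood cells, lower. Fli1 stood at 5.71 on the untreated array, 5.78 on the vector array, 6.26 on the Mical2-labelled array and 3.59 on the Mical3-labelled array, and its second probe set lay below the floor on all arrays. On the vector array Ppargc1a, a coactivator known to induce Vegfa without hypoxia, was called higher at 6.84 against 4.19 on the untreated array, with 3.96 and 3.78 on the Mical2-labelled and Mical3-labelled arrays. Of its 5 probe sets 4 were above the floor on the vector array and on no other.

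Hypoxia genes showed no call among 17 on the Mical2-labelled array, and on the Mical3-labelled array Bnip3 was lower at 5.76 (9.73 on the untreated array, 10.13 on the vector array) and Ddit4 at 8.52 (9.61 and 9.58). Their medians were 0.10 and 0.07 for the Mical2-labelled array and -0.16 and -0.27 for the Mical3-labelled array, while Vegfa itself differed there by -0.07 against the vector array and 0.63 against the untreated one.

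Genes that VEGF induces early, which stand downstream of the receptors, had 5 of 25 called higher and none lower on the Mical2-labelled array. These were Fos, Fosl1, Klf2, Hbegf and the cyclooxygenase gene Ptgs2, of which all but Ptgs2 were also counted in lists above. Hbegf and Ptgs2 were calls at the limit, with log2 differences of 1.03 and 1.02 from the nearer control. A second Hbegf probe set read 7.71, 7.42, 8.41 and 8.55 on the untreated, vector, Mical2-labelled and Mical3-labelled arrays. In it both hairpin arrays were under 2-fold above the untreated array. Over all genes compared on the Mical2-labelled array, 0.977% were higher and 1.75% lower. On the Mical3-labelled array, 7 of 24 were higher (Dusp1, Dusp5, Dusp6, F3, Fos, Ier3 and Hbegf) and 2 lower, Egr2 and Ptgs2. Egr2 lay near or below the floor, at 5.62 on the untreated array, 5.31 on the vector array and 4.13 on the Mical3-labelled array. Among all genes compared on that array the shares were 1.38% higher and 2.49% lower. Dusp1, a phosphatase of MAP kinases, stood at 9.57 on the untreated array, 8.92 on the vector array, 10.32 on the Mical2-labelled array and 12.21 on the Mical3-labelled array. Ptgs2 had opposite directions on the hairpin arrays, at 9.15, 7.82, 10.17 and 5.72 in that order. The medians were 0.67 and 0.30 on the Mical2-labelled array and 0.22 and 0.47 on the Mical3-labelled array. Many signals other than VEGF induce these genes, and the labels name no ligand added to the cells.

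Other angiogenic ligands and receptors had none of 25 called on the Mical2-labelled array and 4 of 24 lower on the Mical3-labelled array. The 4 were Pdgfrb, the chemokine gene Cxcl12, the lipid receptor gene Lpar1 and Fgfr1. A second Pdgfrb probe set read 6.97, 5.94, 7.32 and 5.56 on the untreated, vector, Mical2-labelled and Mical3-labelled arrays. It fell short of 2-fold against the vector array, so the Pdgfrb call rests on its main probe set. The other Fgfr1 probe sets lay below the floor on every array. Lpar1 stood at 8.68 on the untreated array, 8.04 on the vector array, 9.05 on the Mical2-labelled array and 6.36 on the Mical3-labelled array, which is the order of arrays seen for Vegfc with the first pair exchanged. On the vector array Igf1, at 5.79 against 9.01, Pdgfra, at 6.16 against 10.40, Pdgfrb, Fgf18 and Efnb2 were lower and Tgfb1 higher, of 24.

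**Figure D4:**
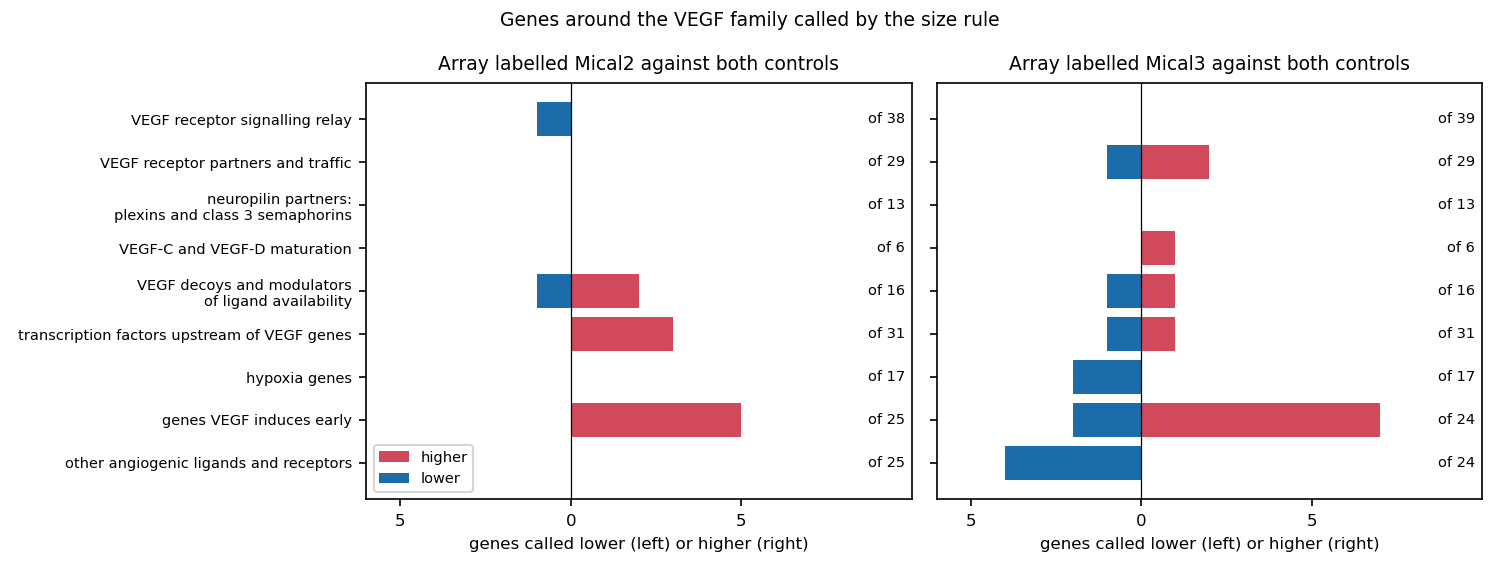
Number of genes (horizontal axis) called lower (blue, to the left) or higher (red, to the right) against both controls in 9 gene lists around the VEGF family, with the number compared at the right edge of each row. The genes that VEGF induces early hold the most higher calls, 5 of 25 on the Mical2-labelled array and 7 of 24 on the Mical3-labelled array. Of these, Hbegf and Ptgs2 lie at the 2-fold limit on the Mical2-labelled array. The receptor relay holds 1 call in all. Over all genes compared, 0.977% were higher and 1.75% lower on the Mical2-labelled array, and 1.38% and 2.49% on the Mical3-labelled array. Lists overlap, so a gene can be counted in more than 1 row.

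The profiles closest to the 3 called members were found by the root mean square distance over the 4 arrays, each gene centred on its own mean. With 4 points this describes the arrays and says nothing of shared control. For Vegfd the closest among 12166 genes that reached the floor was Fli1, at a distance of 0.05 on the log2 scale. Fli1 lay just above the floor on both controls and below it on the Mical3-labelled array. Next was Lefty1, an inhibitor of Nodal, at 0.11 (8.08, 7.97, 8.78 and 6.13 on the untreated, vector, Mical2-labelled and Mical3-labelled arrays). The interleukin-13 receptor gene Il13ra1 followed at 0.14. For Vegfc the closest were Ccdc80, a secreted matrix protein, at 0.17 (11.23, 10.79, 11.09 and 9.10), Tspan8 at 0.20 and Zfp469 at 0.21. For Flt4 they were the histone variant gene Macroh2a2 at 0.11 (8.74, 8.67, 7.12 and 7.11), Zfp354c at 0.13 and Purg at 0.13. The Macroh2a2 probe set and the main ones of Vegfc and Vegfd are of the _x_at kind.

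**Figure D5:**
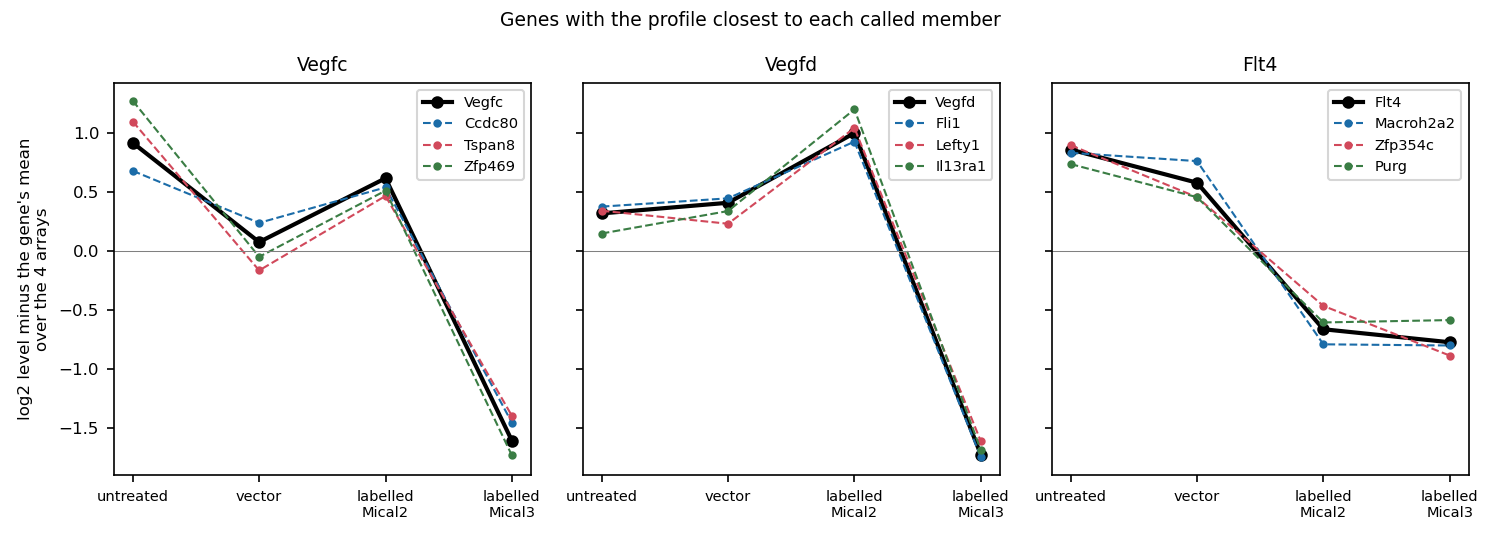
Log2 level minus the gene's own mean over the 4 arrays (vertical axis) for Vegfc, Vegfd and Flt4 (black) and the 3 genes with the closest profile to each (dashed colours). Vegfc and Vegfd share the low value on the Mical3-labelled array but differ in the controls, where vector minus untreated is -0.84 for Vegfc and 0.09 for Vegfd, while Flt4 is low on both hairpin arrays.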

How the data were processed

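Total RNA of 4 groups of SVEC4-10 cells, 1 array each, was measured on 3' expression arrays. The authors deposited log2 expression levels per probe set, computed with RMA (background correction, quantile normalization and a summary over probes) per the submitters' processing notes. The sources used here give no version or settings. The values were used without further scaling. Of 45101 probe sets 34945 had 1 gene symbol, updated through Entrez identifiers to a RefSeq gene table of GRCm38.p6 (34741 matched), and a gene was represented by its probe set with the highest mean, control probe sets left out. Calls were by size, as the report defines. Promoter windows came from the RefSeq table of that build. The code of the calling rule was run on simulated arrays whose noise was assumed, which gives no error rate for these arrays.

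The members, lists and alternatives were chosen with earlier results of these data known. Named were all members with every probe set, list genes called by the rule (up to 6 per list for the hairpin arrays and 3 for the vector array, not all of them printed with values), and for each member called against both controls the 3 genes of closest profile, predicted genes skipped. Lists also covered lymphatic markers, of which Prox1, Lyve1 and Reln lay below the floor on all arrays and Pdpn between 11.67 and 12.50. Alternatives changed the control array, fold, floor, probe set rule and normalization. The number of arrays limits the precision. Python 3.11.15, numpy 2.4.6, pandas 2.3.3 and matplotlib 3.10.9 were used.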

Additional observations from a re-analysis of the deposited data

How the results depend on the processing

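Of 9 alternatives, 4 (either control alone, a fold of 1.5 and no floor) only loosen the rule and cannot remove a call. Over the other 5, Vegfc and Vegfd kept their calls on the Mical3-labelled array, with the nearer log2 difference from -1.91 to -1.18 and from -2.29 to -2.0, and between the hairpin arrays. Flt4 lost its call on both hairpin arrays with the mean of its probe sets. Its other probe set rules chose the same probe set, and the repeated normalization gave -1.15 on the Mical2-labelled and -1.29 on the Mical3-labelled array. Members called on the Mical2-labelled array were 3 against the vector array alone, 3 at a fold of 1.5 and 0 with the mean of the probe sets, in place of 1. On the vector array they were 5 at a fold of 1.5, 2 without _s_at and _x_at probe sets (Vegfc joined Nrp1), and 0 with the mean of the probe sets or a repeated quantile normalization, in place of 1. Nrp1, at -1.01, is thus a call at the limit, as is Vegfb between the hairpin arrays, lost at -0.93 under the repeated normalization. Between the hairpin arrays 5 members were called at a fold of 1.5, in place of 3.

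Over all genes, comparing with the vector array alone gave 1286 calls for the Mical2-labelled array and 1402 for the Mical3-labelled array, in place of 329 and 465. A fold of 1.5 gave 979 and 1323, with 2084 for the vector array (in place of 691) and 2287 between the hairpin arrays (in place of 898). A floor at the 75th percentile, 8.01, gave 206 for the Mical2-labelled array, 446 for the vector array and 579 between the hairpin arrays, and the mean of the probe sets gave 218 for the Mical2-labelled array. The causes of these shifts were not tested beyond the construction of each alternative. Kdr and Pgf lie too close to the floor for a difference to be read. No paired analysis was possible because each group has 1 array.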
